A study of Homo sapiens with 2 samples.

Results

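ADAM, ADAMTS and ADAMTSL genes were compared between 2 lines made from the human gastric cancer cell line MKN1. One line was made to express extra RHOA of the wild-type sequence, the other RHOA Y42C. Members were all probe sets whose single gene symbol in the platform annotation is ADAM, ADAMTS or ADAMTSL followed by a number. This gave 42 genes of 17687 named genes: 19 ADAM, 18 ADAMTS and 5 ADAMTSL genes, each measured by 1 probe set. RHOA is a GTPase that switches on actomyosin contraction, and Y42C, a tyrosine-to-cysteine change, occurs in gastric cancer. Both lines carried a pBABE RHOA plasmid and were selected with puromycin, and the comparison asks which transcripts differ between them. The labels do not say whether a line is 1 clone or a pool, and no parental or empty-vector line was analysed here, so it cannot be told in which line a level changed. Each line was measured on 1 array, so no difference below has a replicate error or a test.

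ADAMs are membrane proteins with a metalloprotease and a disintegrin domain. The active ones release the outer part of growth factor precursors, receptors and adhesion molecules from the cell surface, a step called shedding, with ADAM10 and ADAM17 as the main sheddases of epithelial cells, while other ADAMs have lost the active site and act in adhesion or in sperm. ADAMTS proteins are secreted relatives with thrombospondin repeats that cut proteoglycans, procollagens and other matrix proteins, and ADAMTSL proteins have the repeats without the protease and bind microfibrils of the matrix.

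Values are log2 signal as deposited, and folds assume that log base. To separate signal from background, a minimum was taken from 348 genes for olfactory receptors, whose RNA is hardly made outside the nose: the 95th percentile of these genes on each array, 5.17 for wild-type and 5.14 for Y42C. Of the 42 members, 13 (31.0%) reached the minimum on at least 1 array, against 66.7% of all named genes. Of these 13, ADAMTS1 and ADAMTS6 were past 2-fold on the higher side in the Y42C line (2 genes), and ADAM15 and ADAMTS14 past it on the lower side (2 genes). Each count is 15.4% of the 13. Over all 11802 genes that reached the minimum, the same shares were 7.46% on the higher and 9.80% on the lower side. The median difference, Y42C minus wild-type, was 0.39 for the 13 members and -0.07 for all genes above the minimum. With the minimum at percentile 99 of the olfactory receptor genes, these medians were 0.06 and -0.11. Each share of the members rests on 2 genes, so its distance from the share of all genes is not a result about the members. Centring the arrays moved the median of all genes from -0.07 to 0.04 and the counts over all genes from 881 higher and 1157 lower to 1149 higher and 917 lower; the 13 members kept their signs, but 1 member in place of 2 was then past 2-fold on the lower side, since ADAM15 moved to -0.94.

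Both arrays had high signal for epithelial keratins (KRT8 at 17.96 and 17.94, KRT18 at 16.96 and 17.03, wild-type first) and EPCAM (13.30 and 13.53), while CDH1, which encodes E-cadherin, was below the minimum on both (3.92 and 3.86). Of 4 fibroblast markers named here 1 was above the minimum, COL1A1. All 4 named leukocyte markers reached it on at least 1 array, with CD68 at 10.66 and 10.15, CD14 at 7.45 and 5.67, and PTPRC and CD3E passing on the Y42C array alone, at 5.39 and 5.67. Of 4 endothelial markers 2 were above the minimum, PECAM1 (6.12 and 6.05) and VWF (6.08 and 6.88). The part of other cell types in the results was not tested. RHOA signal was close on both arrays (16.47 and 16.30). These values do not separate the introduced RHOA from the cells' own.

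The promoters of 5 members are shown because they include the members past 2-fold that the promoter table holds and both main sheddases. Each is the 250 bases before the gene's start, 5′ to 3′ on the gene's strand, from RefSeq on GRCh38.p14. The windows are ADAMTS6 (chr5:65481921-65482170, minus strand), ADAM15 (chr1:155051066-155051315, plus strand), ADAMTS14 (chr10:70672256-70672505, plus strand), ADAM17 (chr2:9555831-9556080, minus strand) and ADAM10 (chr15:58749708-58749957, minus strand). Capitals mark matches on either strand to TGANTCA, the site of AP-1 factors, GGAATG, the core of the TEAD site, and GGGCGG, the core of the SP1 site, and adjoining matches run together.
ADAMTS6: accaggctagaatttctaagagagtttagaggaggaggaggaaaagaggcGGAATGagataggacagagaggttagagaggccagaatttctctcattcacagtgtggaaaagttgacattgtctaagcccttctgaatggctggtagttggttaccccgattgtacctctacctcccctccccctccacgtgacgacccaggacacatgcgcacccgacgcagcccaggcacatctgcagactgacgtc
ADAM15: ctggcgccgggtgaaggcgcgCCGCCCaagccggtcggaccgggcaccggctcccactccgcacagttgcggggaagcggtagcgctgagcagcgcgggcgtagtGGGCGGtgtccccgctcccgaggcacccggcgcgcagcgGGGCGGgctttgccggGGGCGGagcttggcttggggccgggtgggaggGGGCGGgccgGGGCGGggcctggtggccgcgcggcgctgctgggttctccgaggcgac
ADAMTS14: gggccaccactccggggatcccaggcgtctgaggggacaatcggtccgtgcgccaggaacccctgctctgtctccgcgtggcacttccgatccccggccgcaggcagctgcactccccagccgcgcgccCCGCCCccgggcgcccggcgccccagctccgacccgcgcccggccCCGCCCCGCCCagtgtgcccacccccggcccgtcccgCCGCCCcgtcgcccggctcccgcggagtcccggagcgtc
ADAM17: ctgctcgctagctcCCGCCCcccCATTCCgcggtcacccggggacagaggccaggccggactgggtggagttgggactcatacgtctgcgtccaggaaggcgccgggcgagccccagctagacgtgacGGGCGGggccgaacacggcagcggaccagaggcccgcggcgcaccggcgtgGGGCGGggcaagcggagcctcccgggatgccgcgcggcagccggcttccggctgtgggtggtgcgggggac
ADAM10: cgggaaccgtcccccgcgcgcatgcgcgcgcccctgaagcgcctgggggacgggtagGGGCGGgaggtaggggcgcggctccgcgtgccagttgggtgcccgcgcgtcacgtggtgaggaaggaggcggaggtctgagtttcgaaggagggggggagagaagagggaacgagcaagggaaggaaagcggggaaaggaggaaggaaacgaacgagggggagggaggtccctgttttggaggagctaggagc

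The ADAMTS6 window holds 1 GGAATG, 200 bases before the start, and no GGGCGG. It is 52.4% G and C, where the other 4 windows lie between 68.4% and 80.4%. The ADAM15 window holds 6 GGGCGG, ADAMTS14 4, ADAM17 3 together with 1 GGAATG, and ADAM10 1. The table holds 28 of the 42 members and 10 of the 13 above the minimum. Among those 10, GGGCGG was found in 8, GGAATG in 2 (ADAMTS6 and ADAM17) and TGANTCA in 0. Over 35116 promoters of the same length the shares were 42.6%, 11.9% and 6.57%. Of all 28 members held, above the minimum or not, 21 had GGGCGG. The median share of G and C was 76.0% in windows of members above the minimum and 69.2% in those below it. Over all promoters it was 58.0%. These matches describe letters in a short window and say nothing of binding.

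**Figure D1:**
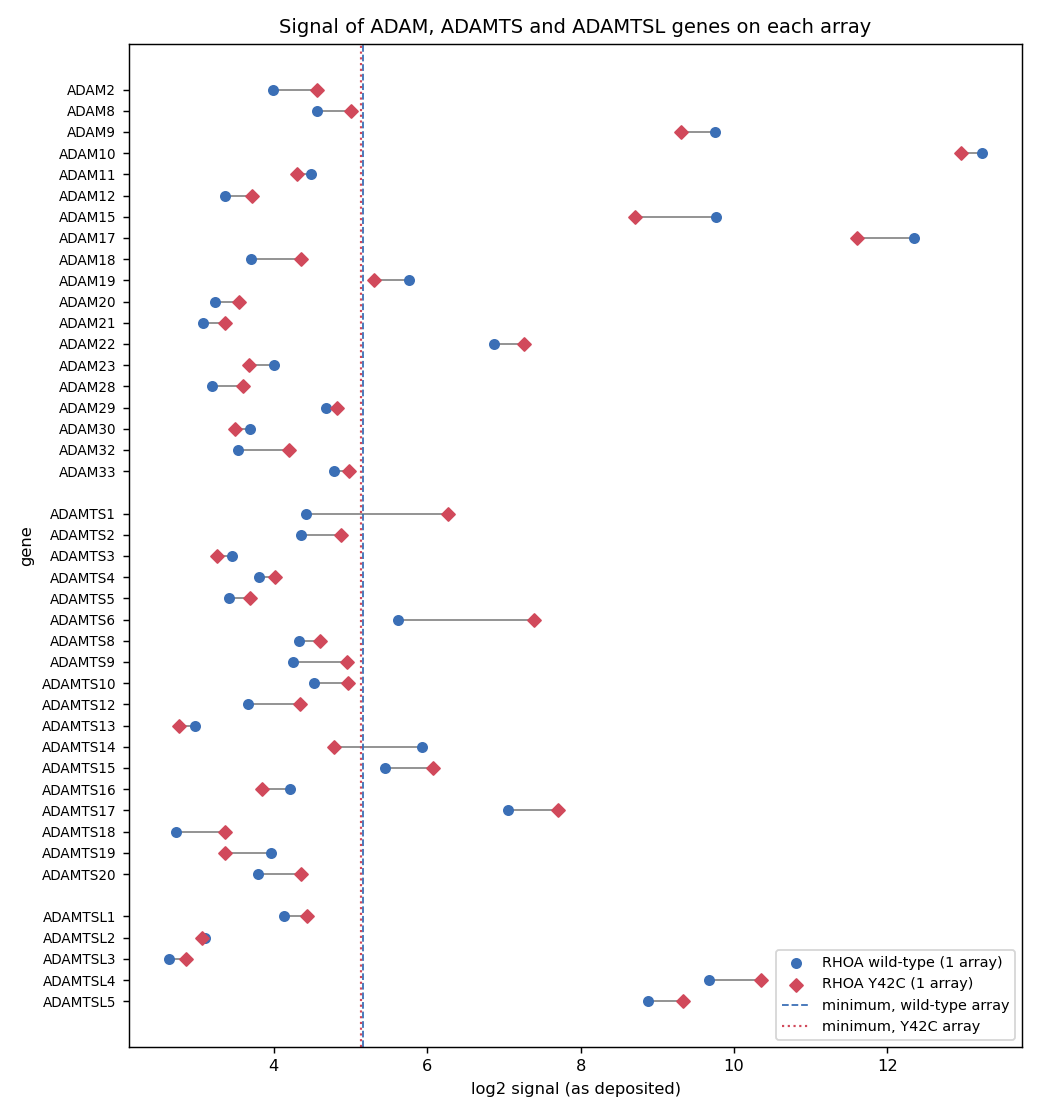
Log2 signal of the 42 genes on the wild-type (circles) and Y42C (diamonds) arrays, 1 array per line, with 1 row per gene and dashed and dotted lines at the minimum of each array (5.17 and 5.14). In 11 genes both arrays lie above the minimum, ADAMTS1 and ADAMTS14 cross it, and 29 genes stay below it on both arrays.

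Among the 12 ADAMs known as active proteases, 5 were above the minimum on both arrays: ADAM9, ADAM10, ADAM15, ADAM17 and ADAM19. All 5 were lower in the Y42C array, and 1 of them, ADAM15, by at least 2-fold. Of all genes above the minimum, 54.2% were lower and 45.2% higher by any amount, and 9.8% were at least 2-fold lower. With 5 genes, the distance from these shares is not a result about the active ADAMs. The median over the 5 was -0.45. Over all 12, including the 7 below the minimum, 6 were higher and 6 lower, with a median of -0.01.

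ADAM10, which sheds Notch receptors and cadherins, had a log2 signal of 13.23 with wild-type RHOA and 12.96 with Y42C. Both values stand far above the background, by 8.06 and 7.82, and the difference of -0.27 is a 1.21-fold lower signal. In the order of differences, 38.5% of all genes above the minimum were more negative. ADAM17, the enzyme that releases tumour necrosis factor and several ligands of the EGF receptor, had 12.35 and 11.60. It was 1.68-fold lower (-0.75), and 16.5% of genes were more negative. Neither of the main sheddases passed 2-fold.

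ADAM15, a membrane protease of epithelial and endothelial cells, had 9.76 with wild-type RHOA and 8.71 with Y42C. The difference of -1.05, a 2.07-fold lower signal, lies just past the threshold, and 8.74% of genes above the minimum were more negative. Among genes with a mean signal within 0.5 of it, 11.1% were at least 2-fold lower. The call is lost when the arrays are centred (-0.94), quantile-normalized (-0.96) or freed of a trend on level (-0.93). ADAM9, a widely expressed sheddase, had 9.75 and 9.31 (1.36-fold lower). ADAM19, which can cleave neuregulins, lay near the background at 5.76 and 5.31, only 0.17 above the minimum in the Y42C array, so its difference of -0.45 is hard to tell from background variation.

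The other 7 active ADAMs were below the minimum on both arrays. They are ADAM8, ADAM12, ADAM20, ADAM21, ADAM28, ADAM30 and ADAM33. ADAM8, a sheddase best known in leukocytes, had 4.57 and 5.01, and 26 olfactory receptor genes were as bright or brighter on the Y42C array. ADAM12, a protease of muscle and placenta that tumour stroma also makes, had 3.37 and 3.72.

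Of 7 ADAMs known to lack the active site, ADAM22 was the 1 gene above the minimum. ADAM22, best known in neurons as a receptor of the secreted LGI1 protein, had 6.87 with wild-type RHOA and 7.26 with Y42C, a 1.31-fold higher signal. It was the 1 ADAM above the minimum that was higher in the Y42C array. ADAM2, ADAM11, ADAM18, ADAM23, ADAM29 and ADAM32 stayed below the minimum. ADAM2, ADAM18 and ADAM32, which are best known from the testis, lie side by side in the gene table next to ADAM9. Their 3 differences were 0.58, 0.66 and 0.66, all at background signal, where the neighbouring ADAM9 lay at -0.44.

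**Figure D2:**
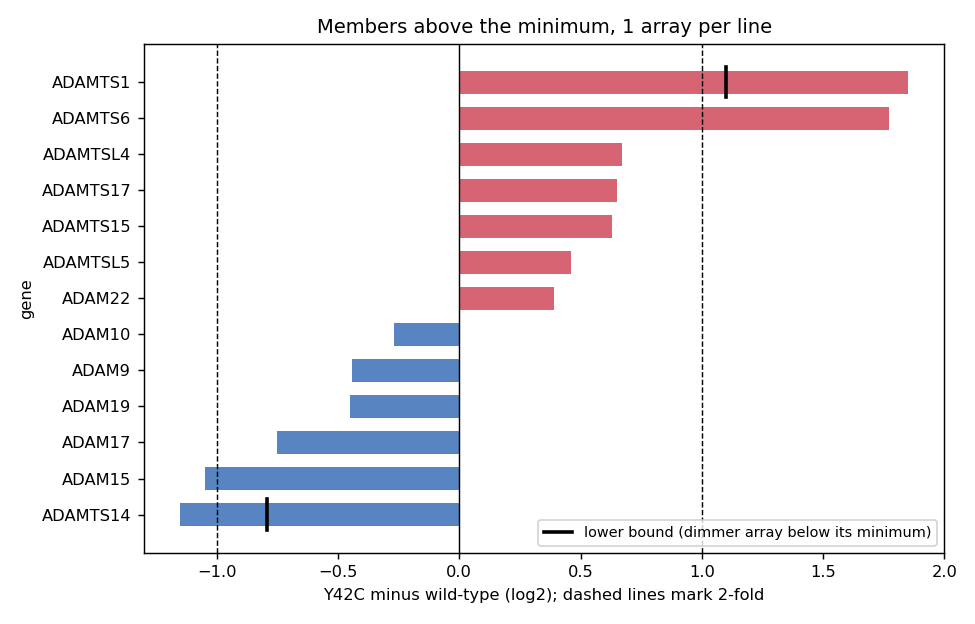
Y42C minus wild-type log2 signal (bars) of the 13 genes above the minimum, 1 array per line and so without error bars, with dashed lines at 2-fold and black ticks at the lower bound where the dimmer array was below its minimum. ADAMTS1 and ADAMTS6 lie past 2-fold on the higher side, and ADAM15 and ADAMTS14 on the lower side, where the bound of ADAMTS14 stays inside 2-fold.

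The largest differences among all members were those of 2 ADAMTS genes. ADAMTS1, a secreted protease that cuts the proteoglycans versican and aggrecan, had 4.42 with wild-type RHOA and 6.27 with Y42C. The wild-type value was below the minimum, and 52 olfactory receptor genes were as bright or brighter there, against 4 on the Y42C array. The signal was therefore at least 2.14-fold higher, and the deposited values differ by 1.85. It passed the minimum only through the array in which it was bright, and it is no longer counted with the minimum at the array median or at percentile 99 of olfactory receptor genes.

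ADAMTS6, a matrix protease linked to fibrillin microfibrils and cell junctions, had 5.62 and 7.39. Both values were above the minimum, the wild-type one by 0.45, with 7 olfactory receptor genes as bright or brighter there. The signal was 3.41-fold higher (1.77), a fold that rests on a wild-type value near the background. Of all genes above the minimum, 1.52% had a more positive difference, and 6.43% of genes of like level passed 2-fold on the higher side. Its difference stayed between 1.5 and 1.88 under 6 alternative treatments of the values. The brightest probe set and low values set to the minimum could not alter it and left it at 1.77.

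ADAMTS14 went the other way. This procollagen N-propeptidase, which trims fibrillar procollagens, had 5.93 with wild-type RHOA and 4.78 with Y42C, the latter below the minimum. The deposited values differ by -1.15, but the bound is at least 1.73-fold lower, and the call is lost once the low value is set to the minimum (-0.79) or 16 is added to the linear values (-0.82). ADAMTS14 was also the 1 ADAMTS gene above the minimum that was lower. Its relatives with the same activity, ADAMTS2 (4.36 and 4.88) and ADAMTS3 (3.45 and 3.26), were at background on both arrays.

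ADAMTS15, a proteoglycanase, had 5.45 and 6.08 (1.55-fold higher). Its wild-type value was 0.28 above the minimum, with 9 olfactory receptor genes as bright or brighter there. ADAMTS17, a relative linked to fibrillin and to short stature with lens defects, had 7.05 and 7.70 (1.57-fold higher). Neither passed 2-fold. The proteoglycanase group had 7 members here, of which only ADAMTS1 and ADAMTS15 were above the minimum. ADAMTS4 and ADAMTS5, the main aggrecanases of cartilage, were at background, with 3.81 and 4.02 for ADAMTS4 and 3.42 and 3.69 for ADAMTS5. ADAMTS5 is the next gene to ADAMTS1 in the gene table, and ADAMTS8 the next to ADAMTS15; both neighbours were below the minimum, and differed by 0.27 and 0.28. ADAMTS13, the liver-made protease of von Willebrand factor, was at 2.98 and 2.77.

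Among the ADAMTS-like proteins, ADAMTSL4 and ADAMTSL5 were well above the minimum on both arrays and ADAMTSL1, ADAMTSL2 and ADAMTSL3 below it. ADAMTSL4, a microfibril-binding protein needed to hold the eye lens, had 9.68 and 10.35, a 1.59-fold higher signal. ADAMTSL5, which also binds microfibrils, had 8.88 and 9.34, a 1.38-fold higher signal. Neither passed 2-fold, and 15.0% and 22.0% of all genes above the minimum were more positive than ADAMTSL4 and ADAMTSL5.

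By family, the ADAMs above the minimum were lower in 5 of 6 cases, the ADAMTS genes higher in 4 of 5, and the ADAMTSL genes higher in 2 of 2. The family medians were -0.44, 0.65 and 0.57. Of all genes above the minimum, 54.2% were lower and 45.2% higher, with a median of -0.07. With 6, 5 and 2 genes, the distance from these shares is not a result about the families. Counting members below the minimum too, 11 of 19 ADAMs were higher and 8 lower, with a median of 0.19. Of the 18 ADAMTS genes 13 were higher and 5 lower, and of the 5 ADAMTSL genes 4 were higher and 1 lower. No test compares the families, and ADAMTS1 and ADAMTS14 were in the count only through their brighter array. ADAM19, ADAMTS6 and ADAMTS15 also lay near the background, with their dimmer value 0.17, 0.45 and 0.28 above the minimum of its array.

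**Figure D3:**
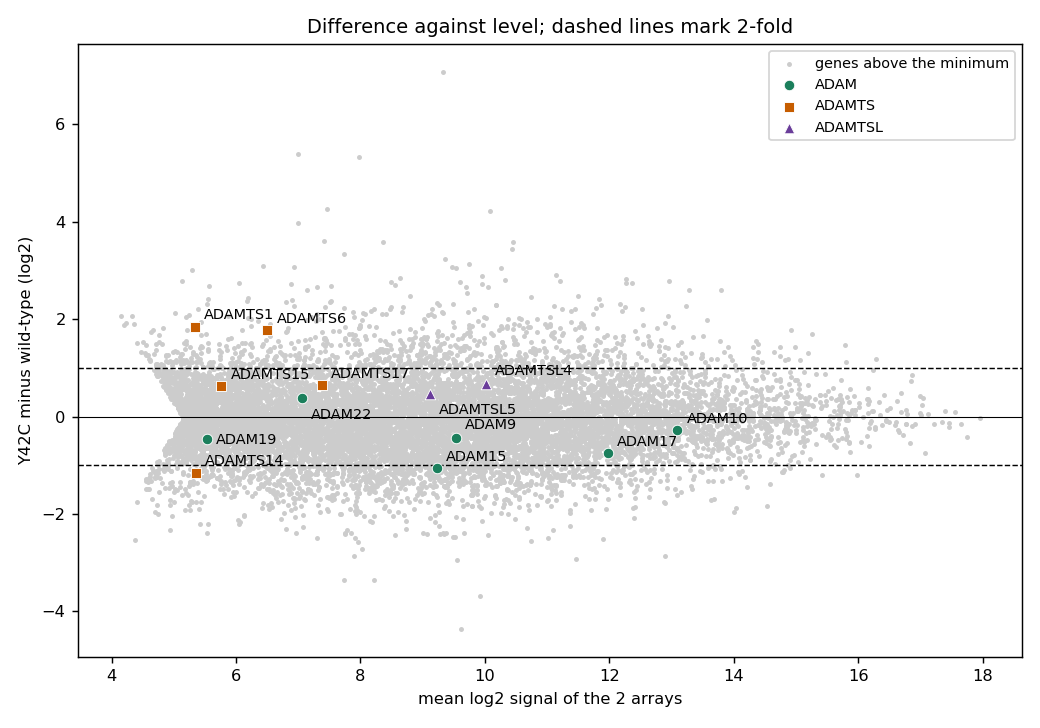
Y42C minus wild-type log2 signal against the mean log2 signal of the 2 arrays for genes above the minimum (grey), with ADAM (circles), ADAMTS (squares) and ADAMTSL (triangles) genes named and dashed lines at 2-fold. ADAMTS1 and ADAMTS6 lie above the upper dashed line, as do 7.46% of all genes above the minimum. ADAM10 and ADAM17 lie between the dashed lines.

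The 29 members below the minimum on both arrays ranged from 2.64 to 4.79 with wild-type RHOA and from 2.77 to 5.01 with Y42C. Their differences ran from -0.60 (ADAMTS19) to 0.71 (ADAMTS9), and 21 of them (72.4%) were higher in the Y42C array. Olfactory receptor genes below the minimum were higher in 57.1% of 326 cases, with a median difference of 0.06 against 0.28 for the members. All 5885 named genes below the minimum were higher in 53.1% of cases, with a median of 0.04. At this signal no fold is given for any of them. The distance between these shares was not tested and is not a result about the members.

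The genes around these proteases were described through lists of carriers, activating enzymes, inhibitors and targets. Of 72 list entries, 65 were named here and 52 were above the minimum. Of these, 5 (9.62%) were past 2-fold on the higher side and 5 (9.62%) on the lower side, beside 7.46% and 9.80% of all genes. Their median difference was 0.25.

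Carriers take ADAM17 and ADAM10 to the cell surface and steer them to targets. The iRhoms RHBDF1 (8.61 and 8.91) and RHBDF2 (9.81 and 10.22), which carry ADAM17, were 1.23-fold and 1.33-fold higher, and FRMD8, which stabilises them, was at background. Of the tetraspanins that carry ADAM10, TSPAN15 was 2.25-fold lower in the Y42C array (7.32 and 6.15) and TSPAN17 2.20-fold lower (9.69 and 8.55). TSPAN33 was 1.52-fold lower (7.01 and 6.41), whereas TSPAN14 (10.04 and 10.67) and TSPAN5 (5.54 and 5.91) were 1.55-fold and 1.29-fold higher, and TSPAN10 was at background. The carriers of ADAM10 therefore differed in both directions.

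Proprotein convertases cut off the prodomain that keeps ADAM and ADAMTS proteases inactive. FURIN, the best known of them, had 8.02 with wild-type RHOA and 10.03 with Y42C, a 4.03-fold higher signal. PCSK5 was 2.55-fold higher (11.13 and 12.48) and PCSK7 1.27-fold higher (8.54 and 8.88). All 3 convertases named here were higher, 2 of them past 2-fold. Of all genes above the minimum, 45.2% were higher and 7.46% past 2-fold on that side. With 3 genes, the distance from these shares is not a result about the list.

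Inhibitors differed in both directions. TIMP3, the matrix-bound inhibitor of ADAM17 and of the aggrecanases, was 1.88-fold higher (14.68 and 15.59) and passes 2-fold once the arrays are centred. TIMP1, which inhibits ADAM10, was 1.21-fold higher (15.87 and 16.15). RECK, a membrane-anchored inhibitor of matrix metalloproteases and ADAM10, was 2.55-fold lower (8.38 and 7.03). TIMP4 differed by -0.02, a sign that turns when the arrays are centred, and A2M was at background. POFUT2 and B3GLCT, which add sugars to thrombospondin repeats, and LRP1, which clears ADAMTS proteases, differed by -0.13, 0.12 and 0.16.

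Of 30 surface proteins shed by ADAMs and named here, 24 were above the minimum, with 1 (4.17%) past 2-fold on the higher and 2 (8.33%) on the lower side. Over all genes the shares were 7.46% and 9.80%. The shares of this list rest on 1 and 2 genes, so their distance from those of all genes is not a result about the list. HBEGF, a ligand of the EGF receptor released by ADAM17, was 2.83-fold higher (8.55 and 10.05). DSG2, a desmosomal cadherin, was 3.07-fold lower (11.71 and 10.09), and NOTCH2, a receptor cut by ADAM10 on activation, 2.51-fold lower (12.01 and 10.68). TNFRSF1A, a tumour necrosis factor receptor that ADAM17 sheds, lay just inside the threshold at 1.97-fold lower (12.47 and 11.49), and AXL, a receptor kinase, was at 13.16 and 13.88. The median of the 24 was 0.10.

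Of 15 matrix and plasma proteins that ADAMTS or ADAMTSL proteins cut or bind, 11 were above the minimum, with 2 (18.2%) past 2-fold on the higher and 0 on the lower side, beside 7.46% and 9.80% of all genes. With so few genes, the distance from the shares of all genes is not a result about this list. VEGFC, a lymphatic growth factor that ADAMTS3 helps to activate, was 2.83-fold higher (8.26 and 9.76), though ADAMTS3 itself was at background. COL1A2, a collagen chain, was 2.06-fold higher (7.68 and 8.72), a call lost when a constant is added to the linear values. Other collagen chains of the list went the other way at low signal, COL1A1 by -0.21 (6.05 and 5.84) and COL2A1 by -0.45 (5.59 and 5.14). VCAN, the versican cut by ADAMTS1, was 1.78-fold lower (10.92 and 10.09), and NCAN lay at -0.59. VWF, the substrate of ADAMTS13, differed by 0.80 (6.08 and 6.88).

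**Figure D4:**
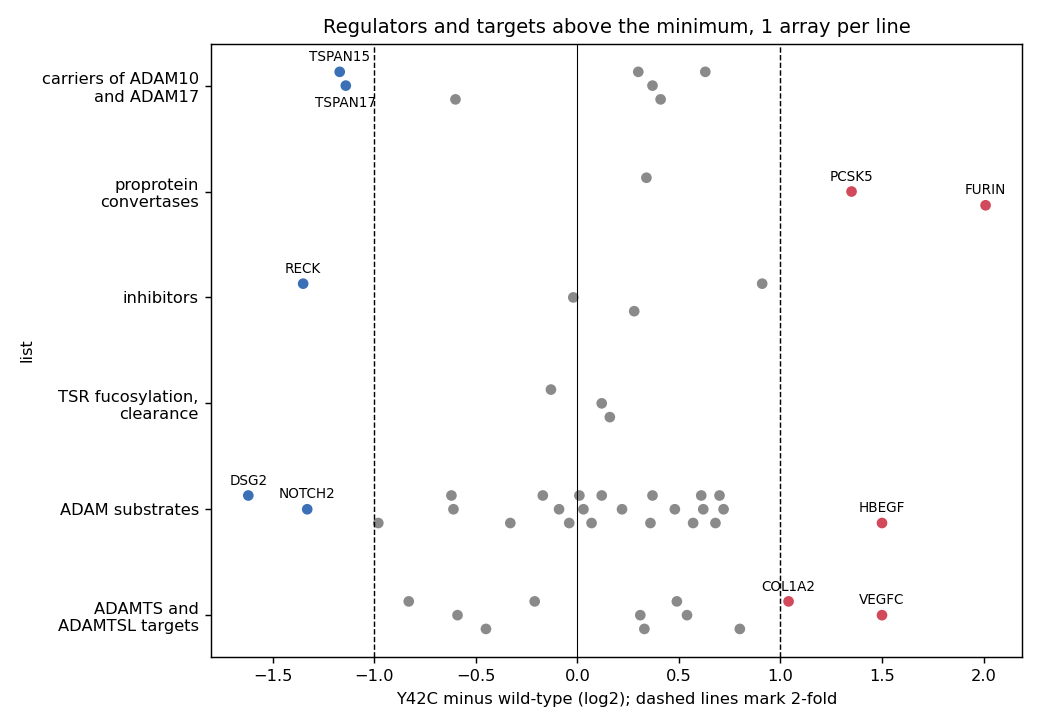
Y42C minus wild-type log2 signal of the 52 regulators and targets above the minimum, 1 point per gene in 6 lists, spread vertically only for legibility, with dashed lines at 2-fold; red points are past 2-fold on the higher side and blue points on the lower side. FURIN, PCSK5, HBEGF, VEGFC and COL1A2 lie on the higher side, and DSG2, RECK, NOTCH2, TSPAN15 and TSPAN17 on the lower side.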

How the data were processed

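Total RNA of 2 MKN1 lines was measured on 1 Affymetrix array each. The authors worked with Affymetrix Expression Console, per the submitters' processing notes. Not given in the sources used here are the version, genome build, background correction, summary method and normalization. The deposited values were taken as log2 signal from their range (2.23 to 18.16). The log base is not stated. Arrays give no read depth, and their number limits the precision.

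Of 21448 probe sets, 17709 had 1 gene symbol, 0 had several and 3739 had none here. By Entrez identifier, 17709 matched the gene table. Probe sets of 20 of 17687 genes were averaged. Genes were kept that reached, on either array, the 95th percentile of its olfactory receptor genes. A fold whose dimmer value is under the minimum is given as a lower bound, computed from the minimum. Every member above the minimum is named, as are partner genes past 2-fold, list ends, carriers, convertases and inhibitors; other genes were named for their known role. Members and lists were chosen with earlier results of these data known. A search of members' proteins for the zinc-binding motif was not run, as protein sequences were not used here. Scripts were tested on simulated data. Alternatives were quantile normalization, centring, a lowess trend on level taken out (span 0.3), other minimums and thresholds, adding 16 to linear values, low values set to the minimum, and the brightest probe set. The software was Python 3.11.15 with matplotlib 3.10.9, statsmodels 0.14.6, NumPy 2.4.6 and pandas 2.3.3.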

Additional observations from a re-analysis of the deposited data

How the results depend on the processing

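With 1 array per line, no array could be left out and no replicate block exists. No paired analysis was possible because each line has 1 array. The 13 members above the minimum kept their sign under all 6 treatments of the values, but not every treatment could turn one. The brightest probe set left all 13 unchanged, since each has 1 probe set. A constant added to linear values cannot turn a sign, and setting low values to the minimum altered only ADAMTS1 and ADAMTS14. With no minimum, all 42 members count by definition. The 13 members above the minimum became 19 with it at percentile 90 of olfactory receptor genes, 10 at percentile 99 and 9 at the array median. Of all genes, 12853, 10335 and 9251 were then above it, in place of 11802. The 2 members at least 2-fold higher became 1 with the minimum at percentile 99 of olfactory receptor genes or at the array median, and 5 at a 1.5-fold threshold. The 2 lower became 1 after centring, quantile normalization, trend removal, with the constant of 16, with low values set to the minimum, and with a minimum at the array median, and 0 at 3-fold. The members' median of 0.39 was 0.50 after centring, 0.51 after quantile normalization, 0.52 after trend removal and 0.06 with the minimum at percentile 99. Of 52 regulators and targets, the 5 at least 2-fold higher became 13 at 1.5-fold and 1 at 3-fold. The 5 lower became 11 and 1. Over all 11802 genes, 881 higher and 1157 lower became 2106 and 2758 at 1.5-fold, and 260 and 235 at 3-fold. At 2-fold they were 773 and 1104 of 10335 with the minimum at percentile 99, and 748 and 995 of 9251 at the array median. The median of the regulators and targets, 0.25, was 0.36 after centring and 0.14 with the minimum at percentile 99. For medians, shifts under 0.1 were taken as no change.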

Other observations

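Some sets of genes related to these proteases were looked up after the members' values were seen. Gamma-secretase cuts the membrane stubs that ADAMs leave behind. Of its 6 listed subunit genes 5 were named here, all above the minimum, as were 66.7% of all named genes. None of the 5 was past 2-fold. Of all genes above the minimum, 7.46% were past 2-fold on the higher and 9.8% on the lower side. With 5 genes, the distance from these shares is not a result about the list. APH1B had the largest difference, 0.85 (5.71 and 6.56, wild-type first), PSENEN lay at -0.41 (14.28 and 13.87), APH1A at -0.29 (13.30 and 13.01), NCSTN at 0.34 (10.89 and 11.23) and PSEN2 at 0.08 (7.22 and 7.30). Among other membrane proteases that shed surface proteins, BACE1 was 1.61-fold higher (7.73 and 8.42), and BACE2 had 5.79 and 4.72, a signal at least 1.57-fold lower because the Y42C value was below the minimum. MEP1A, MEP1B and RHBDL2 were below the minimum on both arrays.

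Relatives of the 42 genes whose symbols fall outside the naming rule were few. THSD4, an ADAMTS-like protein of microfibrils, had 5.62 and 5.58, and ADAMDEC1, a shortened ADAM of gut macrophages, and PAPLN, a papilin, were below the minimum on both arrays.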
